A study of Pagiophloeus tsushimanus with 15 samples.

Results

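The unigenes described here are the carboxylesterases and related esterases of larvae of the weevil Pagiophloeus tsushimanus. They were chosen by the protein description that the authors gave each assembled unigene: the word esterase had to occur in it, and phosphodiesterases, thioesterases, methylesterases, pectinesterases and other diesterases were left out. Of 82 descriptions with the word, 40 were dropped in this way, which left 42 of 34486 unigenes in the table. The rule itself used no expression value, although it was set with earlier results of these data known. A unigene stands for an assembled transcript cluster, and its description names the most similar protein of another species, here always a beetle, so it is not a measured function. Identifiers carry the prefix TRINITY_, which is left off below. Whole larvae were sequenced after feeding on 1 of 5 diets, with 3 libraries per diet: the additive labelled EO at 10 mg/g, EO at 30 mg/g, D-camphor at 17 mg/g, D-camphor at 41 mg/g, and an untreated diet. D-camphor is a plant monoterpenoid ketone, and the series asks how larvae respond to terpenoids in the diet. The sources used here do not give the make-up of EO, the feeding time, the age or strain of the larvae, or whether a library holds 1 animal or a pool, so p-values measure the spread between these libraries, which may be partly technical.

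Carboxylesterases hydrolyse ester bonds. In insects, the esterases of the E4, FE4 and B1 type are known from aphids and mosquitoes, in which extra copies of them bind and break down organophosphate and other ester insecticides. Other esterases have fixed roles: juvenile hormone esterase breaks down juvenile hormone, acetylcholinesterase ends the signal at cholinergic synapses, neuropathy target esterase acts on membrane phospholipids, and Notum removes a lipid from Wnt proteins. D-camphor itself is a ketone and carries no ester bond. Carboxylesterases are commonly listed beside cytochrome P450s, glutathione S-transferases, UDP-glycosyltransferases and ABC transporters as the enzymes and pumps with which insects handle plant compounds.

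By description, 17 of the 42 unigenes matched esterases E4, FE4 or B1, 9 matched venom carboxylesterase-6, 7 matched other carboxylesterases, 3 matched acetylcholinesterases and 1 each matched juvenile hormone esterase, neuropathy target esterase and the carboxylesterase Notum. The last 3 were named esterase 2, esterase AGAP003155 and metallophosphoesterase 1, of which metallophosphoesterase 1 is a phosphoesterase by name. Of the 42, 29 reached a mean of at least 1 TPM over the 15 libraries and were tested, and 13 did not. The tested ones comprised 10 of the E4, FE4 or B1 type, all 9 venom carboxylesterase-6-like ones, 4 carboxylesterases, the 3 remaining ones just named, and 1 each of the juvenile hormone esterase, neuropathy target esterase and acetylcholinesterase type. The lowest mean that was tested was 1.02 TPM (DN1503_c0_g3) and the highest that was not was 0.971 TPM (DN11181_c0_g1). Of the 29, 3 passed the filter only through 1 diet: without EO at 30 mg/g the juvenile hormone esterase DN5265_c0_g1 averaged 0.903 TPM, without D-camphor at 17 mg/g the acetylcholinesterase-like DN514_c0_g1 averaged 0.914 TPM, and without the untreated diet DN1503_c0_g3 averaged 0.573 TPM. TPM is a transcript's level relative to its length and to the library's total, so levels of different unigenes can be set beside each other, but it holds no read number and the depth behind each value is unknown.

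Expression was concentrated in a few esterases. Only 3 of the 42 averaged more than 100 TPM: the E4-like DN268_c0_g1 at 383 TPM, and the venom carboxylesterase-6-like DN16380_c0_g1 at 378 TPM and DN6821_c0_g1 at 258 TPM. Between them they made up 49.3% to 76.1% of the summed esterase level of a library. A further 14 averaged between 10 and 100 TPM and 12 between 1 and 10 TPM. The venom carboxylesterase-6-like unigenes held on average 52.4% of the summed level, the E4, FE4 and B1 type 38.0%, and the carboxylesterases 6.67%.

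**Figure D1:**
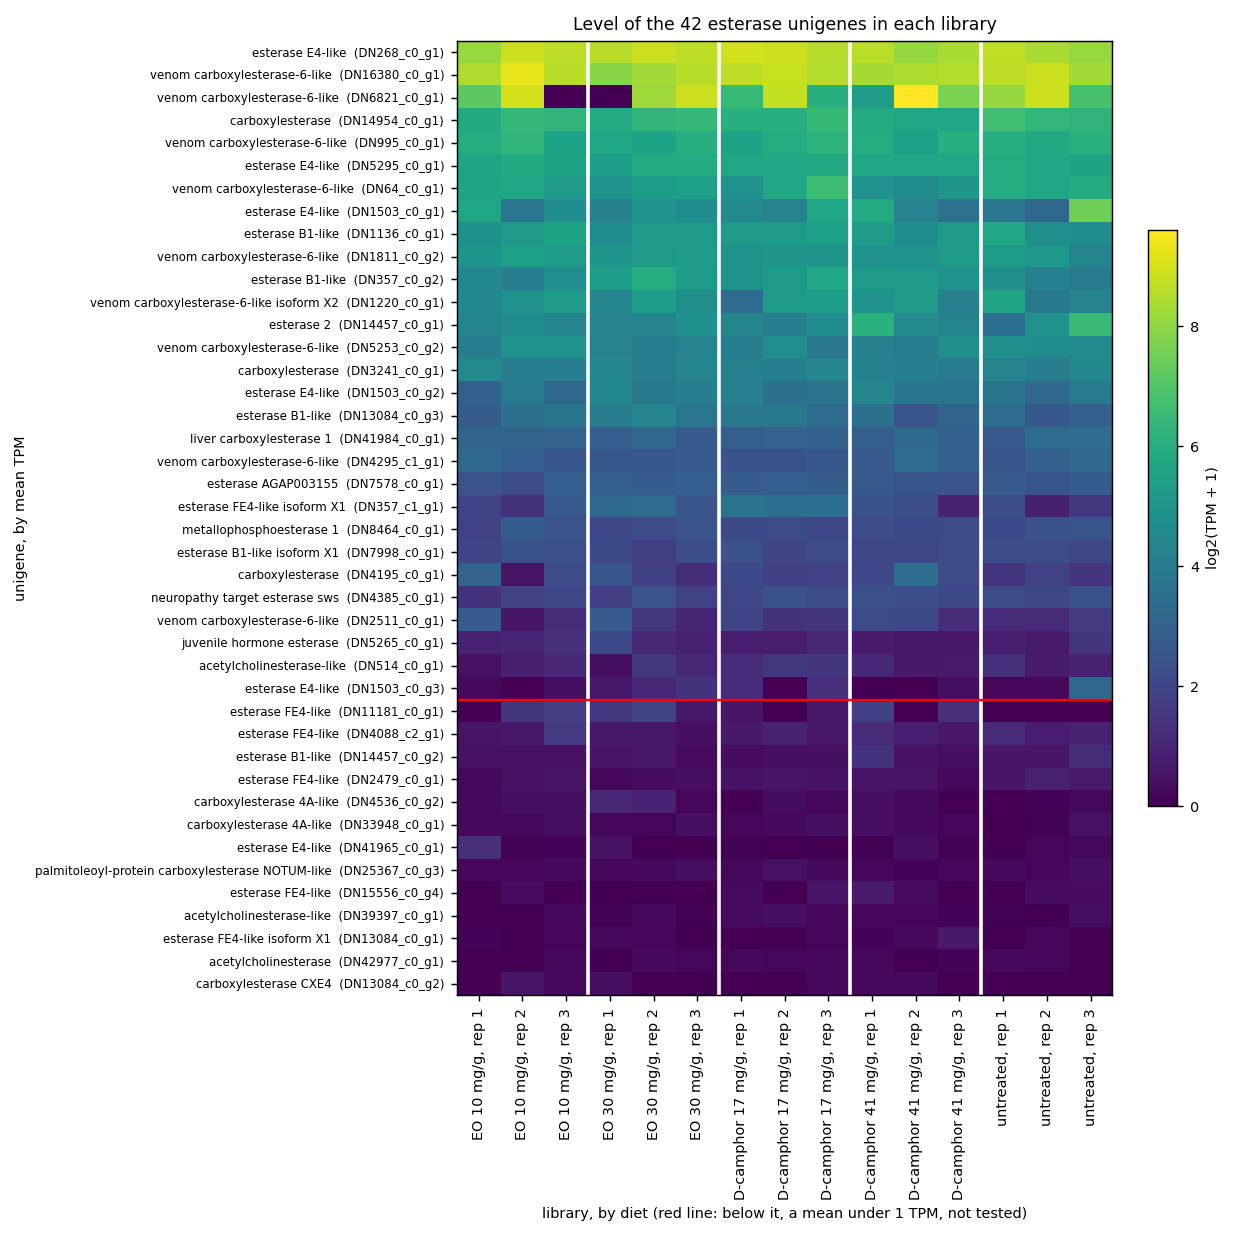
Level of each of the 42 esterase unigenes, as log2(TPM + 1) by colour, in the 15 libraries grouped by diet, with the unigenes ordered by mean TPM. A few rows at the top hold most of the transcript level, and the 13 rows below the red line lay under a mean of 1 TPM and were not tested.

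The summed esterase level was 1556 ± 484 TPM on EO at 10 mg/g, 1497 ± 370 TPM on EO at 30 mg/g, 1593 ± 247 TPM on D-camphor at 17 mg/g, 1498 ± 288 TPM on D-camphor at 41 mg/g and 1604 ± 167 TPM on the untreated diet (SD, n = 3 each). Single libraries ran between 1080 and 2115 TPM, that is 0.108% to 0.211% of the total TPM, and the groups overlapped throughout. DN6821_c0_g1 made much of that spread. Without it the sums were 1336 ± 248 TPM on EO at 10 mg/g, 1248 ± 145 TPM on EO at 30 mg/g, 1397 ± 44.1 TPM on D-camphor at 17 mg/g, 1158 ± 117 TPM on D-camphor at 41 mg/g and 1318 ± 67.6 TPM in untreated larvae. These are whole bodies, in which fewer cells of a type and less RNA per cell cannot be told apart.

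**Figure D2:**
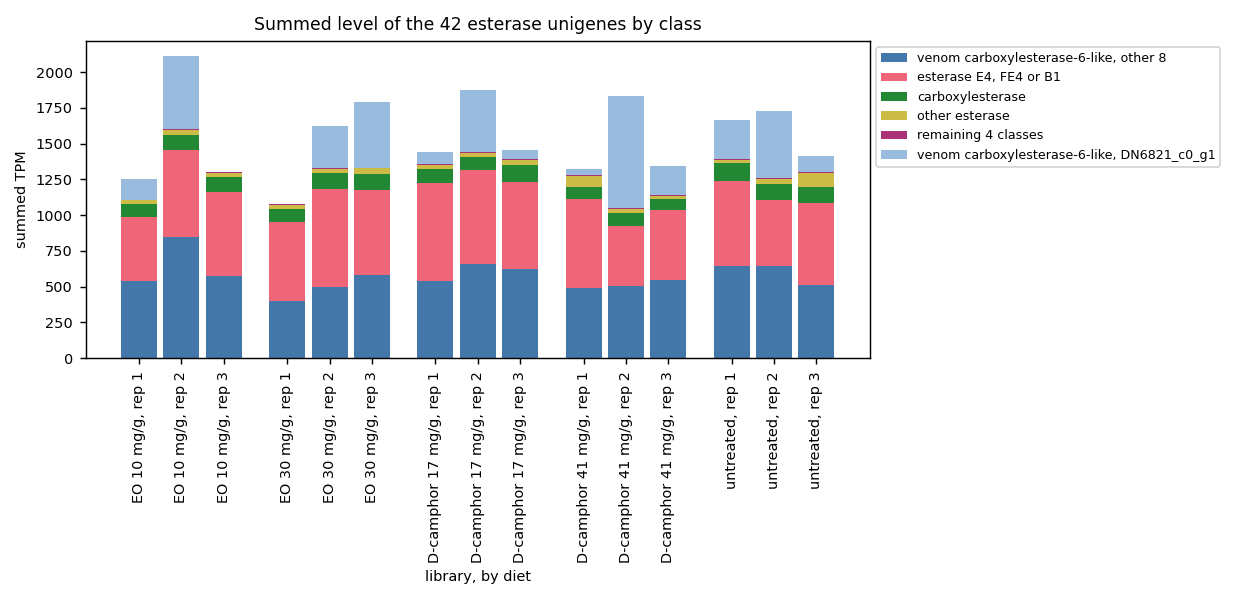
Summed TPM of the 42 esterase unigenes in each library, stacked by class, with DN6821_c0_g1 drawn apart at the top of each bar. The sums of the diets overlap between 1080 and 2115 TPM, and the top segment differs most between libraries of the same diet.

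No esterase unigene passed the test on any diet. Limma was fitted to log2(TPM + 1) of all 12510 tested unigenes, and a call is a Benjamini-Hochberg adjusted p under 0.05. Of the 29 tested esterases, 0 were called on EO at 10 mg/g, where 0.0719% of all tested unigenes were called, 0 on EO at 30 mg/g (0.184%), 0 on D-camphor at 17 mg/g (0.04%) and 0 on D-camphor at 41 mg/g (0.016%), each against the untreated diet. The 4 terpenoid diets averaged and set against untreated called 0 of 29 (0.0879% of all). With shares this low over the whole table, a count of 0 among 29 is close to the background and does not set the esterases apart. At an unadjusted p under 0.05 there was 1 esterase on EO at 10 mg/g (6.31% of all unigenes), 3 on EO at 30 mg/g (8.8%), 2 on D-camphor at 17 mg/g (6.24%), 3 on D-camphor at 41 mg/g (6.24%) and 3 for the mean of the 4 diets (6.15%). All 3 libraries of a diet lay on the same side of all 3 untreated ones for 1 of the 29 esterases on EO at 10 mg/g (9.95% of all unigenes), 6 on EO at 30 mg/g (10.2%), 3 on D-camphor at 17 mg/g (11.1%) and 4 on D-camphor at 41 mg/g (9.95%). The 4 comparisons with the untreated diet share its 3 libraries, so they are not independent of each other.

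The fitted intervals say how large a change the libraries could still hold, since a p over the threshold does not show that levels were alike. The whole 95% interval of the fold change lay within 1 log2 unit of 0, a 2-fold change, for 20 of the 29 esterases on EO at 10 mg/g (69.0%, against 69.3% of all unigenes), 15 on EO at 30 mg/g (51.7% against 68.3%), 17 on D-camphor at 17 mg/g (58.6% against 71.6%) and 18 on D-camphor at 41 mg/g (62.1% against 71%). The median log2 fold change of the 29 was -0.04 on EO at 10 mg/g, -0.06 on EO at 30 mg/g, 0.04 on D-camphor at 17 mg/g and -0.10 on D-camphor at 41 mg/g. Over all tested unigenes the median was -0.12 on EO at 10 mg/g, -0.06 on EO at 30 mg/g, 0.03 on D-camphor at 17 mg/g and -0.04 on D-camphor at 41 mg/g. Median-of-ratios scaling shifted the median of all unigenes by 0.14 on EO at 10 mg/g, to 0.02, and put that of the esterases at 0.16, so the sign of small fold changes on this diet depends on the scaling. The residual spread within diets had a median SD of 0.36 log2 units for the esterases and 0.26 for all tested unigenes.

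**Figure D3:**
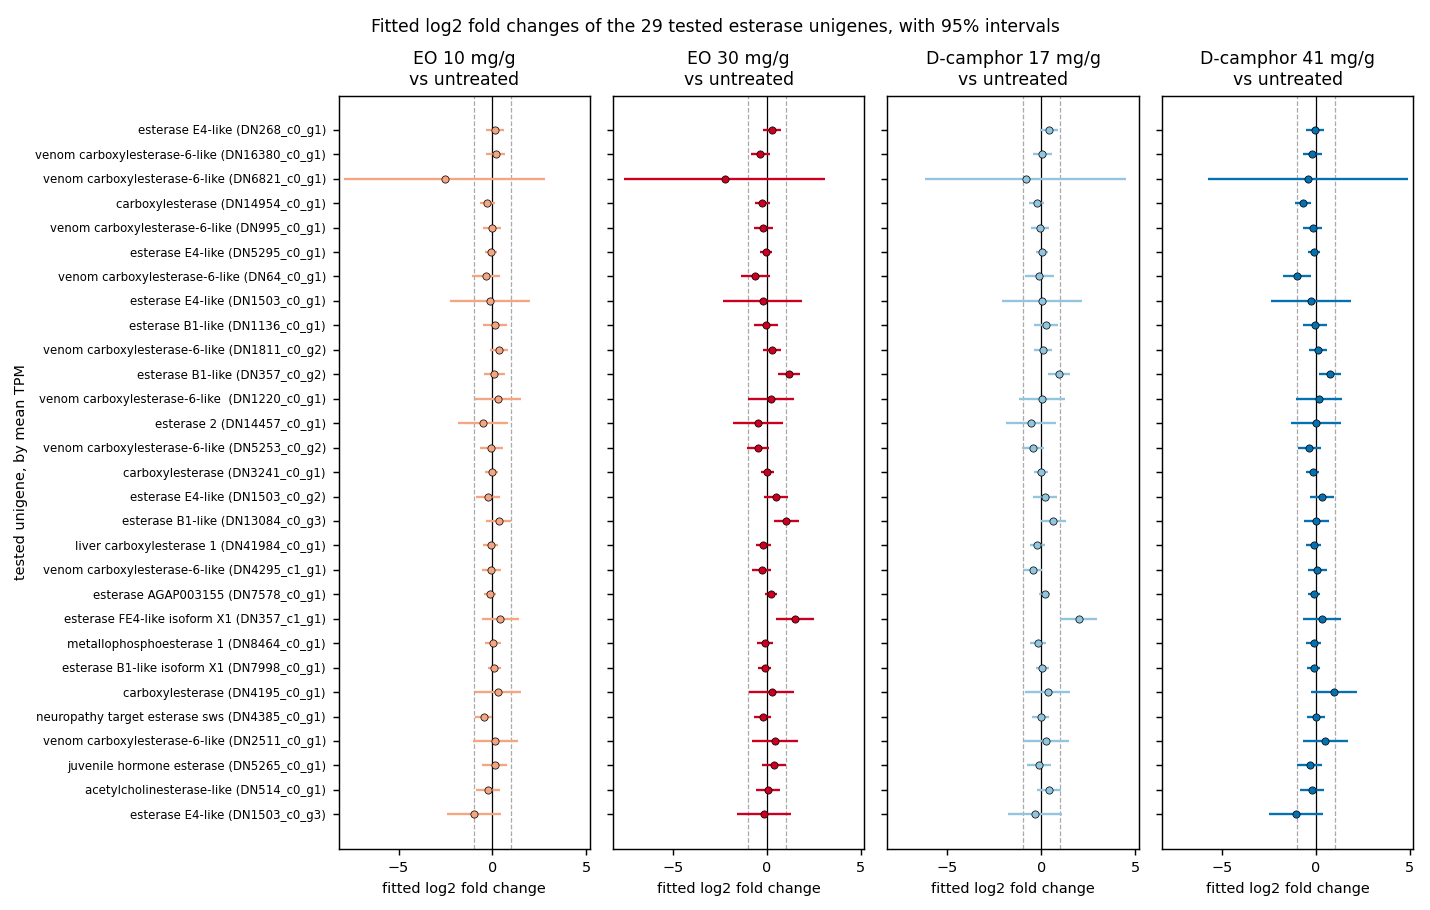
Fitted log2 fold changes of the 29 tested esterases for each terpenoid diet against untreated, with 95% intervals from limma; dashed lines mark 1 log2 unit either side of 0. Most points lie near 0, a few B1-like and FE4-like unigenes sit to the right in the panels for EO at 30 mg/g and for D-camphor at 17 mg/g, and DN6821_c0_g1 has the widest interval on all 4 diets.

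Among the esterases of the E4, FE4 and B1 type, the lowest p-values belonged to a pair from the same assembly component. The B1-like DN357_c0_g2 had 21.50, 16.25 and 25.10 TPM on EO at 10 mg/g, 41.36, 59.10 and 36.80 TPM on EO at 30 mg/g, 28.95, 36.67 and 51.38 TPM on D-camphor at 17 mg/g, 35.30, 35.77 and 27.96 TPM on D-camphor at 41 mg/g, and 26.54, 17.65 and 14.73 TPM in untreated larvae. All 9 libraries of the 3 diets other than EO at 10 mg/g lay above all 3 untreated libraries, and those of EO at 10 mg/g overlapped with them. On EO at 30 mg/g the log2 fold change against untreated was 1.19 (95% interval 0.62 to 1.77), with an adjusted p of 0.141 in limma, the lowest of any esterase in any comparison. On D-camphor it was 0.96 at 17 mg/g (adjusted p 0.374) and 0.75 at 41 mg/g (adjusted p 0.618), and on EO at 10 mg/g 0.11 with a standard error of 0.26.

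The FE4-like DN357_c1_g1 was lower in level and peaked on another diet. It had 2.83, 1.62 and 5.39 TPM on EO at 10 mg/g, 8.95, 9.58 and 4.81 TPM on EO at 30 mg/g, 12.02, 10.34 and 10.25 TPM on D-camphor at 17 mg/g, 4.39, 3.98 and 0.95 TPM on D-camphor at 41 mg/g, and 3.98, 0.81 and 1.95 TPM in untreated larvae. The 3 libraries of D-camphor at 17 mg/g were the highest of all 15, those of EO at 30 mg/g also lay above the untreated ones, and D-camphor at 41 mg/g and EO at 10 mg/g overlapped with untreated. The log2 fold change against untreated was 1.99 on D-camphor at 17 mg/g (95% interval 0.99 to 2.98, limma adjusted p 0.232) and 1.51 on EO at 30 mg/g (0.51 to 2.50, adjusted p 0.347). DN357_c0_g2 was 2.41 to 29.4 times as abundant as DN357_c1_g1 in every library. Unigenes of one component can share reads, so the split of level between the pair is uncertain.

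The B1-like DN13084_c0_g3 was the third of this type with an unadjusted p under 0.05 on EO at 30 mg/g. It had 6.13, 10.62 and 12.26 TPM on EO at 10 mg/g, 15.46, 19.80 and 12.80 TPM on EO at 30 mg/g, 13.23, 13.48 and 9.24 TPM on D-camphor at 17 mg/g, 10.75, 4.80 and 7.49 TPM on D-camphor at 41 mg/g, and 10.05, 5.27 and 7.01 TPM in untreated larvae. Every library of EO at 30 mg/g lay above every untreated library and above every library of EO at 10 mg/g. The log2 fold change on EO at 30 mg/g against untreated was 1.03 (0.36 to 1.70, limma adjusted p 0.347). DN13084_c0_g1 and DN13084_c0_g2, of the same component and named with their values in view, reached 0.58 and 0.46 TPM at most, so reads may be split here too.

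Levels of cell type markers were set beside these values. The summed level of cuticle and epidermis markers over 67 unigenes was 6107 to 92999 TPM on EO at 10 mg/g, 13785 to 57989 TPM on EO at 30 mg/g, 10881 to 29231 TPM on D-camphor at 17 mg/g, 10849 to 57257 TPM on D-camphor at 41 mg/g and 4158 to 8008 TPM in untreated larvae, without overlap with untreated on the 3 diets other than EO at 10 mg/g. Of the 52 tested cuticle unigenes, 0 were called on any diet. A fold change above 0 was seen in 49 of them on EO at 10 mg/g (29.6% of all tested unigenes), 47 on EO at 30 mg/g (40.5%), 41 on D-camphor at 17 mg/g (55.3%) and 51 on D-camphor at 41 mg/g (41.8%). The same shares of all unigenes stand beside the lists that follow. Of 7 tested haemocyte markers, all 7 were below untreated on EO at either dose and on D-camphor at 17 mg/g, and 6 on D-camphor at 41 mg/g, with 0 called. Of 27 tested muscle markers, 3 were above untreated on EO at 10 mg/g and 8 on EO at 30 mg/g. On D-camphor it was 24 at 17 mg/g and 20 at 41 mg/g. Of 48 tested gut markers, 20 were above untreated on EO at either dose, 13 on D-camphor at 17 mg/g and 18 at 41 mg/g. Of 2 tested nervous system markers, 2 were above untreated on each diet but EO at 30 mg/g, with 1 there. Again 0 were called. All 4 tested fat body markers were above untreated on EO at 30 mg/g (median log2 fold change 0.45) and on D-camphor at 17 mg/g (median 0.30), 1 of 4 was above it on EO at 10 mg/g (median -0.13) and on D-camphor at 41 mg/g (median -0.12), and 0 were called. Their summed level overlapped with untreated on every diet, at 1296 to 6879 TPM on EO at 10 mg/g, 3171 to 7212 TPM on EO at 30 mg/g, 3601 to 5486 TPM on D-camphor at 17 mg/g, 2575 to 4786 TPM on D-camphor at 41 mg/g and 3073 to 4461 TPM in untreated larvae. Summed haemocyte markers ran from 205 to 497 TPM over the libraries, gut markers from 59556 to 81316 TPM, muscle markers from 9422 to 14218 TPM and nervous system markers from 17.3 to 26.9 TPM, and no marker unigene was at 0 everywhere. Their part in the esterase values was not tested.

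**Figure D4:**
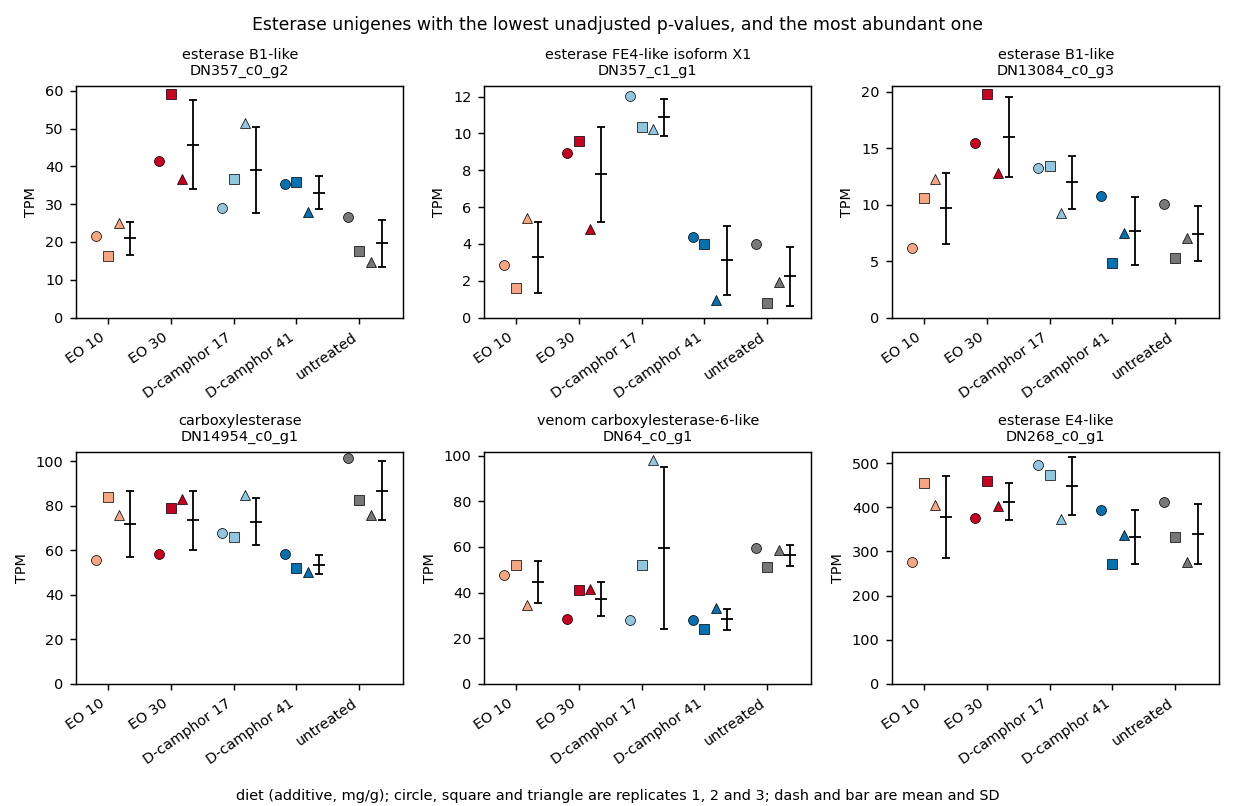
TPM of 6 esterase unigenes in each library by diet; circle, square and triangle are replicates 1, 2 and 3, and the dash with its bar is the mean with 1 SD (n = 3). For DN357_c0_g2 the libraries of EO at 30 mg/g and of D-camphor at either dose lie above those of untreated larvae, and for DN14954_c0_g1 those of D-camphor at 41 mg/g lie below them.

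The most abundant esterase of this type was the E4-like DN268_c0_g1. It had 275.45, 455.61 and 405.78 TPM on EO at 10 mg/g, 376.49, 459.91 and 403.00 TPM on EO at 30 mg/g, 496.98, 473.32 and 372.80 TPM on D-camphor at 17 mg/g, 393.22, 270.72 and 336.26 TPM on D-camphor at 41 mg/g, and 411.54, 332.08 and 276.42 TPM in untreated larvae. All 4 terpenoid diets overlapped with untreated, and the log2 fold change against untreated was 0.14 on EO at 10 mg/g, 0.29 on EO at 30 mg/g, 0.40 on D-camphor at 17 mg/g and -0.03 on D-camphor at 41 mg/g. The E4-like DN5295_c0_g1 was among the most even by residual SD, 0.17 log2 units, with 39.4 to 58.8 TPM over all 15 libraries, and the B1-like DN1136_c0_g1 ran from 24.0 to 53.9 TPM. Over the 10 tested unigenes of the type the median log2 fold change was 0.10 on EO at 10 mg/g, 0.12 on EO at 30 mg/g, 0.21 on D-camphor at 17 mg/g and -0.03 on D-camphor at 41 mg/g. Fold changes above 0 made up 6 of the 10 on EO at 10 mg/g (29.6% of all tested unigenes), 5 on EO at 30 mg/g (40.5%), 9 for D-camphor at 17 mg/g (55.3%) and 4 for D-camphor at 41 mg/g (41.8%). The 10 include DN1503_c0_g3, which passed the filter only through the untreated diet and was below 0 on all 4 diets, so these medians and counts rest partly on that selection. DN1503_c0_g1 and DN1503_c0_g2 share its component, and the DN357 pair shares another, so the 10 are not independent.

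The venom carboxylesterase-6-like unigenes, named after a protein of honeybee venom, had 0 of 9 tested called on any diet. Their median log2 fold change against untreated was -0.02 on EO at 10 mg/g, -0.28 on EO at 30 mg/g, -0.07 on D-camphor at 17 mg/g and -0.17 on D-camphor at 41 mg/g. DN16380_c0_g1, the most abundant of them, had 348.91, 603.39 and 383.84 TPM on EO at 10 mg/g, 237.77, 308.89 and 381.94 TPM on EO at 30 mg/g, 402.51, 449.39 and 357.41 TPM on D-camphor at 17 mg/g, 320.11, 341.39 and 357.41 TPM on D-camphor at 41 mg/g, and 399.50, 460.23 and 310.66 TPM in untreated larvae. Its diets all overlapped with untreated.

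DN64_c0_g1 was the venom carboxylesterase-6-like unigene with the lowest p-value against untreated. It had 47.71, 52.18 and 34.47 TPM on EO at 10 mg/g, 28.47, 41.07 and 41.62 TPM on EO at 30 mg/g, 28.09, 52.21 and 97.93 TPM on D-camphor at 17 mg/g, 27.88, 23.90 and 33.14 TPM on D-camphor at 41 mg/g, and 59.59, 51.07 and 58.44 TPM in untreated larvae. The libraries of D-camphor at 41 mg/g and of EO at 30 mg/g all lay below the untreated ones, and those of D-camphor at 17 mg/g spread from the lower end of all values to the highest. The log2 fold change was -0.98 on D-camphor at 41 mg/g (-1.73 to -0.23, limma adjusted p 0.628) and -0.61 on EO at 30 mg/g (adjusted p 0.605). DN995_c0_g1, with 42.5 to 79.2 TPM, and DN1811_c0_g2, with 19.0 to 43.5 TPM over all libraries, had no unadjusted p under 0.05.

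DN6821_c0_g1, the third most abundant esterase, differed more between libraries of a diet than between diets. It had 144.93, 514.09 and 0 TPM on EO at 10 mg/g, 0, 290.74 and 457.09 TPM on EO at 30 mg/g, 88.82, 434.49 and 64.96 TPM on D-camphor at 17 mg/g, 37.99, 781.03 and 201.64 TPM on D-camphor at 41 mg/g, and 273.16, 474.40 and 110.36 TPM in untreated larvae. It was thus listed at 0 in 2 libraries, both on EO, and was the most abundant esterase of all in 3 others. Its residual SD was 3.31 log2 units, and 12 of the 12510 tested unigenes had a larger one. With that spread the fitted log2 fold change on EO at 10 mg/g was -2.53 with a 95% interval of -7.88 to 2.82, so the libraries hold little information on a diet difference of this unigene.

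Of the other carboxylesterases, DN14954_c0_g1, matched to a carboxylesterase of the bark beetle Dendroctonus armandi, had the lowest p-values. It had 55.48, 83.99 and 75.86 TPM on EO at 10 mg/g, 58.20, 78.94 and 83.02 TPM on EO at 30 mg/g, 67.56, 65.96 and 84.92 TPM on D-camphor at 17 mg/g, 58.29, 51.98 and 50.11 TPM on D-camphor at 41 mg/g, and 101.59, 82.42 and 76.06 TPM in untreated larvae. All 3 libraries of D-camphor at 41 mg/g lay below all untreated ones and below all those of D-camphor at 17 mg/g, and the other 3 diets overlapped with untreated. The log2 fold change on D-camphor at 41 mg/g was -0.68 against untreated (-1.09 to -0.27, limma adjusted p 0.381) and -0.43 against D-camphor at 17 mg/g (adjusted p 0.492). DN3241_c0_g1, matched to the same species and named here after its values were seen, had the lowest ratio of highest to lowest library, 1.47, of the 27 tested esterases above 0 in all libraries, with 15.1 to 22.2 TPM.

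The esterases with fixed roles were all low. The juvenile hormone esterase DN5265_c0_g1 had 0.95, 1.07 and 1.47 TPM on EO at 10 mg/g, 3.36, 1.10 and 0.88 TPM on EO at 30 mg/g, 0.71, 0.64 and 1.14 TPM on D-camphor at 17 mg/g, 0.62, 0.52 and 0.59 TPM on D-camphor at 41 mg/g, and 0.74, 0.61 and 1.77 TPM in untreated larvae. Replicate 1 of EO at 30 mg/g stood above all other libraries, and every diet overlapped with untreated. The overlap was narrowest for D-camphor at 41 mg/g, whose highest library had 0.62 TPM, against 0.61 TPM in the lowest untreated one. The acetylcholinesterase-like DN514_c0_g1 had 0.36, 0.73 and 1.11 TPM on EO at 10 mg/g, 0.32, 1.98 and 1.13 TPM on EO at 30 mg/g, 1.26, 1.94 and 1.73 TPM on D-camphor at 17 mg/g, 1.09, 0.59 and 0.61 TPM on D-camphor at 41 mg/g, and 1.58, 0.61 and 0.86 TPM in untreated larvae. Its levels at the D-camphor doses did not overlap, and all diets overlapped with untreated. As it passed the filter only through D-camphor at 17 mg/g, no test of that step is given. The remaining 2 acetylcholinesterases, DN39397_c0_g1 and DN42977_c0_g1, named with their values in view, reached 0.29 and 0.18 TPM at most.

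The neuropathy target esterase DN4385_c0_g1 had 1.57, 2.73 and 3.27 TPM on EO at 10 mg/g, 2.42, 4.49 and 2.59 TPM on EO at 30 mg/g, 3.16, 4.22 and 3.60 TPM on D-camphor at 17 mg/g, 4.02, 4.01 and 3.33 TPM on D-camphor at 41 mg/g, and 3.63, 3.29 and 4.36 TPM in untreated larvae. On EO at 10 mg/g all 3 libraries lay below all untreated ones, narrowly at 3.27 against 3.29 TPM, with a log2 fold change of -0.46 (standard error 0.21, limma adjusted p 0.713). Without replicate 1 of EO at 10 mg/g the fold change was -0.25. It was the sole esterase with an unadjusted p under 0.05 on that diet. The Notum-like DN25367_c0_g3 stayed between 0.08 and 0.35 TPM and was not tested.

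The step from the lower to the higher dose was compared within each additive. Of 29 esterases, 0 were called for EO at 30 against 10 mg/g (0.00799% of all tested unigenes) and 0 for D-camphor at 41 against 17 mg/g (0%). At an unadjusted p under 0.05 there were 6 for the EO step, 20.7% of the 29 against a background of 4.97%, and 4 for the D-camphor step, against 9.51%. The 6 were DN357_c0_g2, DN357_c1_g1, DN13084_c0_g3, the E4-like DN1503_c0_g2 and esterase AGAP003155 (DN7578_c0_g1), all higher at 30 mg/g by 0.35 to 1.08 log2 units, and DN16380_c0_g1, which was lower by 0.51, with adjusted p-values of 0.511 to 0.991 in limma. The share was not tested against the background, and the 6 include a pair from one component. The libraries of both doses did not overlap for 3 esterases in the EO step (8.55% of all unigenes) and for 7 in the D-camphor step (21.4%). The 7 include the acetylcholinesterase-like DN514_c0_g1, which passed the filter only through D-camphor at 17 mg/g, so that count rests partly on the filter. Over the 10 tested E4, FE4 and B1 esterases the EO step had 7 values above 0 and a median of 0.43, and the D-camphor step had 9 values below 0 and a median of -0.27, while the medians over all unigenes were 0.06 for the EO step and -0.07 for the D-camphor step. Values above 0 made up 61.4% of all unigenes in the EO step and 38.2% in the D-camphor step. The 10 E4, FE4 and B1 esterases include DN1503_c0_g1, DN1503_c0_g2 and DN1503_c0_g3, which share a component, and the DN357 pair, which shares another. Of the 12 fat body markers 4 were tested. All 4 were above 0 in the EO step (median 0.76) and below 0 in the D-camphor step (median -0.22). Their summed levels overlapped between the doses of each additive. Of 52 cuticle markers, 28 were above 0 in the EO step (median 0.08) and 38 in the D-camphor step (median 1.63). Of 27 muscle markers it was 9 and 10, of 48 gut markers 24 and 20, and of 7 haemocyte markers 1 and 4. Of 2 nervous system markers, 1 was above 0 in each step. The part of the marker lists in the esterase values was not tested.

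Whether an esterase's step differed between the additives was tested directly, although the doses differ and the additives are not matched in amount. This comparison was added after the values had been seen, and it called 0 of 29 (0% of all unigenes), with 5 at an unadjusted p under 0.05 (11.6% of all). DN357_c1_g1 had the largest difference of steps, 2.75 log2 units (1.34 to 4.15, limma adjusted p 0.16), as it was 1.08 higher at 30 than at 10 mg/g of EO and 1.66 log2 units lower at 41 than at 17 mg/g of D-camphor. DN357_c0_g2 had a difference of 1.29 (adjusted p 0.237), DN13084_c0_g3 of 1.32 (adjusted p 0.281) and DN7578_c0_g1 of 0.63 (adjusted p 0.278). The venom carboxylesterase-6-like DN4295_c1_g1 had one of -0.76 (adjusted p 0.40) and was 0.53 log2 units higher at 41 than at 17 mg/g of D-camphor.

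Both doses of EO together against both of D-camphor called 0 of 29 esterases (0.048% of all unigenes), with 2 at an unadjusted p under 0.05 (10.6% of all). One of them was the juvenile hormone esterase DN5265_c0_g1, for which no test is given, since without the high replicate 1 of EO at 30 mg/g it averaged 0.915 TPM and fell under the filter. The other was the neuropathy target esterase DN4385_c0_g1, 0.33 log2 units lower on EO (limma adjusted p 0.468). Its value was -0.22 without replicate 1 of EO at 10 mg/g, and -0.14 without the 3 libraries that scored highest on principal component 1. The F test of any difference between the 5 diets also called 0 of 29 (0.0719% of all), with 4 at an unadjusted p under 0.05 (8.83% of all), namely DN357_c0_g2, DN357_c1_g1, DN13084_c0_g3 and DN14954_c0_g1.

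Several esterases stood out in single libraries rather than diets. The E4-like DN1503_c0_g1 reached 179.49 TPM in replicate 3 of the untreated diet, against 12.84 and 8.20 TPM in the other untreated libraries and at most 57.65 TPM, in replicate 1 of D-camphor at 41 mg/g, on any terpenoid diet. Its log2 fold change on EO at 30 mg/g was -0.22 with that library and 1.11 without it, and the other 3 diets also came out above 0 without it, at 1.20 on EO at 10 mg/g, 1.37 on D-camphor at 17 mg/g and 1.08 on D-camphor at 41 mg/g, with none called. Esterase 2 (DN14457_c0_g1) had the same 2 libraries at the top, 68.64 TPM in replicate 1 of D-camphor at 41 mg/g and 89.69 TPM in untreated replicate 3, and its log2 fold change on EO at 30 mg/g was -0.47 with untreated replicate 3 and 0.30 without it. The B1-like DN14457_c0_g2, named after its values were seen, was also highest there, at 1.66 TPM in replicate 1 of D-camphor at 41 mg/g and 1.37 TPM in untreated replicate 3. DN1503_c0_g3 reached 8.22 TPM in untreated replicate 3 and 1.64 TPM at most elsewhere. As DN1503_c0_g1, g2 and g3 are of one component, as are DN14457_c0_g1 and g2, reads may be split among them.

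Principal component 1 held 23.5% of the variance, and the carboxylesterase DN4195_c0_g1 peaked in the 3 libraries that scored highest on it. It had 9.94 TPM in replicate 2 of D-camphor at 41 mg/g, 7.29 TPM in replicate 1 of EO at 10 mg/g and 4.84 TPM in replicate 1 of EO at 30 mg/g, and 3.64 TPM at most elsewhere. The venom carboxylesterase-6-like DN2511_c0_g1, named after its values were seen, had 6.03 TPM in replicate 1 of EO at 30 mg/g and 5.94 TPM in replicate 1 of EO at 10 mg/g, followed by 3.68 TPM in replicate 1 and 3.33 TPM in replicate 2 of D-camphor at 41 mg/g. The cuticle markers were highest in the 3 libraries in which DN4195_c0_g1 peaked, and their part in these values was not tested. The number of unigenes over 1 TPM ran from 11478 to 13659 per library, no libraries held identical values, and libraries of a diet correlated at 0.892 to 0.968 across unigenes.

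**Figure D5:**
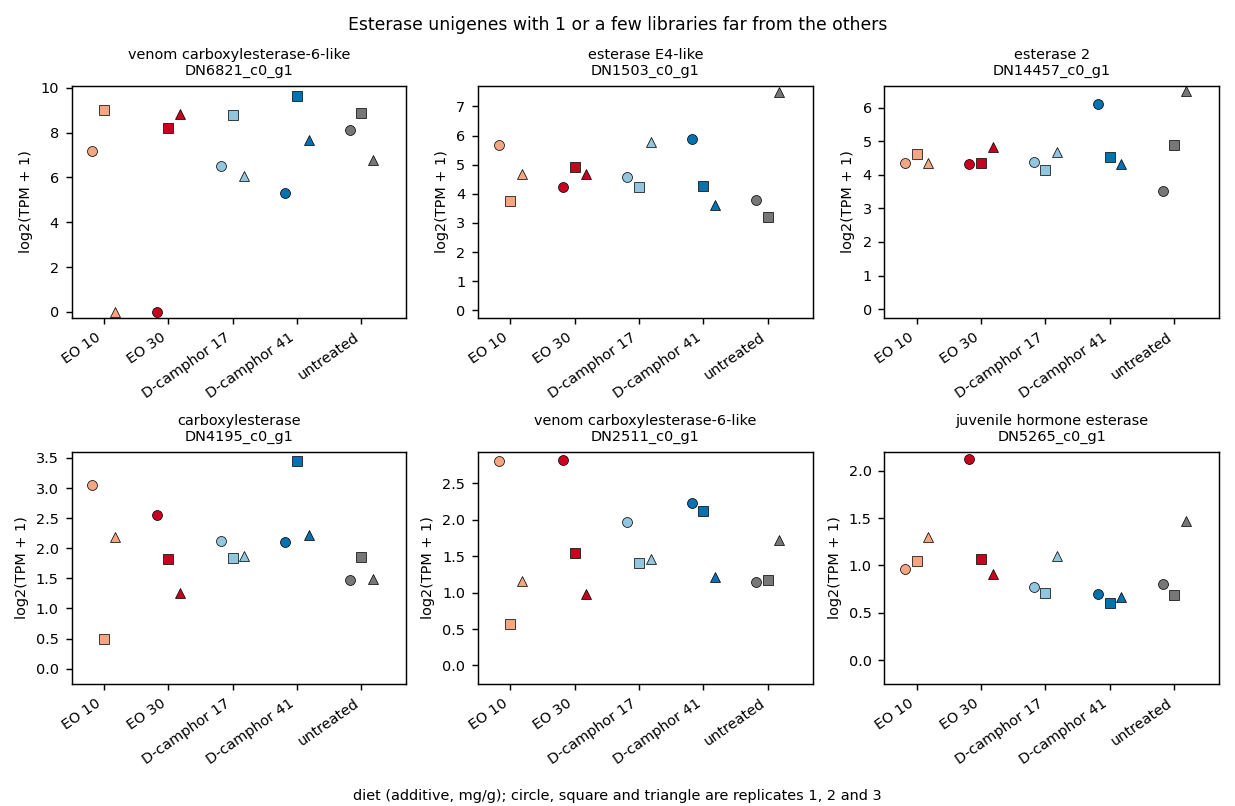
Level as log2(TPM + 1) of 6 esterase unigenes with 1 or a few libraries far from the rest, by diet; circle, square and triangle are replicates 1, 2 and 3. DN6821_c0_g1 is listed at 0 in 1 library of each EO dose, and DN1503_c0_g1 and DN14457_c0_g1 are highest in untreated replicate 3.

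Among the tested esterases not described so far, named with their values in view, the venom carboxylesterase-6-like DN1220_c0_g1 ran from 9.35 to 48.4 TPM and DN5253_c0_g2 from 13.5 to 29.5 TPM. Liver carboxylesterase 1 (DN41984_c0_g1) ran from 5.51 to 9.69 TPM, metallophosphoesterase 1 (DN8464_c0_g1) from 2.68 to 5.97 TPM and the B1-like DN7998_c0_g1 from 2.48 to 4.42 TPM. None of these had an unadjusted p under 0.05 in any comparison. The 13 untested esterases peaked at 0.18 to 2.82 TPM and of all 42 esterases 10 were listed at 0 in at least 1 library. The FE4-like DN11181_c0_g1, named after its values were seen, had 0, 1.73 and 2.33 TPM on EO at 10 mg/g, 1.95, 2.82 and 0.59 TPM on EO at 30 mg/g, 0.51, 0 and 0.57 TPM on D-camphor at 17 mg/g, 2.56, 0 and 1.50 TPM on D-camphor at 41 mg/g, and 0 in all 3 untreated libraries. It was above 0 in 9 of the 12 terpenoid libraries and listed at 0 in the other 3, and with the depth unknown a value of 0 does not show that the transcript was absent. The carboxylesterase 4A-like DN4536_c0_g2, also chosen after its values were seen, was highest in replicates 1 and 2 of EO at 30 mg/g, at 1.14 and 0.88 TPM.

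The other detoxification classes were counted in the same fit. Of 37 tested cytochrome P450 unigenes, 4 were called higher on EO at 10 mg/g, 4 on EO at 30 mg/g, 3 on D-camphor at 17 mg/g and 2 on D-camphor at 41 mg/g, and 0 were called lower. None were called among 18 glutathione S-transferases, 14 UDP-glycosyltransferases, 40 ABC transporters, 20 lipases, 1 cholinergic synapse unigene or 1 cholinesterase-like adhesion protein, in any comparison. As no comparison called more than 0.184% of all tested unigenes, counts of 0 in lists of this size are close to the background. In the juvenile hormone pathway without its esterase, 1 of 11 tested unigenes was called, on EO at 30 mg/g only (0.184% of all). That was juvenile hormone epoxide hydrolase 1-like (DN1820_c1_g1), an enzyme that inactivates the hormone by another route. It had 281.67, 222.03 and 213.67 TPM on EO at 30 mg/g, against 55.35, 41.07 and 29.63 TPM in untreated larvae, and rose by 2.51 log2 units (standard error 0.35, limma adjusted p 0.0145). Its libraries on EO at 10 mg/g (73.21, 106.15 and 196.76 TPM) and D-camphor at 17 mg/g (109.42, 83.15 and 61.53 TPM) also lay above all untreated ones. Those on D-camphor at 41 mg/g (87.37, 49.96 and 59.42 TPM) overlapped with untreated. Over the 11 unigenes the median log2 fold change was 0.74 on EO at 10 mg/g and 1.04 at 30 mg/g. On D-camphor it was 0.87 at 17 mg/g and 0.47 at 41 mg/g. The juvenile hormone esterase DN5265_c0_g1 had 3.36, 1.10 and 0.88 TPM on EO at 30 mg/g, against 0.74, 0.61 and 1.77 TPM in untreated larvae. As it passed the filter only through EO at 30 mg/g, no test of it is given, and the difference between the 2 unigenes was not tested.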

How the data were processed

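Per the labels' protocols, RNA of whole larvae was taken up in TRIzol and made into NEBNext Ultra libraries. The authors deposited TPM with 2 decimals for 34486 unigenes in 15 libraries, 3 for each of 5 diets; the columns were matched to libraries by letter and replicate number. The sources used here do not give the assembler, aligner or counting tool. TPM holds no read counts, so depth and counting precision are unknown, and the smallest step is 0.01.

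TPM was taken as log2(TPM + 1). The 12510 unigenes that averaged 1 TPM or more were fitted in limma 3.58.1 under R 4.3.3 with 1 mean per diet, a variance trend, 10 residual and 2.12 prior degrees of freedom, and two-sided tests. Benjamini-Hochberg adjustment ran over all tested unigenes of a comparison, and the threshold was 0.05. A fold change on this scale understates that of low unigenes. The method was also run on simulated data, with shifts added only to unigenes well above the filter. That run gives no measure of sensitivity for unigenes near a mean of 1 TPM.

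Unigenes were named by a rule: the 10 most abundant esterases, in each comparison the 4 with the largest moderated t, all with a hormone, cholinesterase or neuropathy target role that were tested, and the most abundant of each class, 23 in all. Esterases outside it are marked as named with their values in view. The esterases, gene lists and marker lists were chosen with earlier results of these data known. Alternatives were median-of-ratios scaling, a replicate block, a filter at a mean of 5 TPM or none at all, a pseudocount of 0.1, groups fitted alone, each library left out, and, added after the data had been seen, 3 libraries left out together. No sequences are shown.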

Additional observations from a re-analysis of the deposited data

How the results depend on the processing

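In 218 combinations of 22 alternative settings with the 10 comparisons, 0 of the tested esterases were called, as in the values reported. The lowest adjusted p stayed above the threshold. For the 29 pairs of an esterase and a comparison with an unadjusted p under 0.05, all 630 values under these settings kept their sign, and a setting that put the esterase under the filter gave none. The pairs were picked by that p in these same data, so a kept sign was likely beforehand and adds no evidence for a difference. Some smaller fold changes did not keep their sign: under median-of-ratios scaling 8 of 28 esterases changed sign on EO at 10 mg/g and 6 of 28 for EO against D-camphor. The settings were median-of-ratios scaling, a filter at a mean of 5 TPM or none at all, a pseudocount of 0.1, the diets compared fitted alone, each library left out, the replicate block, and the 3 libraries that scored highest on principal component 1 left out, the last added after the data had been seen. The log2 fold change of DN357_c0_g2 on EO at 30 mg/g against untreated ran from 0.996 to 1.42, with limma adjusted p-values of 0.073 to 0.423, the lowest without untreated replicate 1. That of DN357_c1_g1 on D-camphor at 17 mg/g ran from 1.63 to 2.48 (adjusted p 0.139 to 0.736), and that of DN14954_c0_g1 on D-camphor at 41 mg/g from -0.77 to -0.56 (adjusted p 0.243 to 0.856). Leaving out any 1 library gave 0 calls in every comparison.

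Over the series the replicate numbers did not pair the libraries: of 30 correlations between same-numbered libraries, from -0.344 to 0.559, 10 were over 0.1, and 6 of 15 libraries correlated best with their own number. All 3 were over 0.1 in 2 of 10 pairs of diets, EO at 10 with EO at 30 mg/g (0.108 to 0.559) and EO at 10 with D-camphor at 17 mg/g (0.106 to 0.416). With the replicate number as a block 0 esterases were called in every comparison, and DN357_c0_g2 in the EO step had a limma adjusted p of 0.761, against 0.511 without the block. With 3 libraries a diet, unknown depth and a spread of up to 3.31 log2 units, many intervals were wide. Changes of more than 2-fold against untreated stay possible for 9 of the 29 esterases on EO at 10 mg/g and 14 at 30 mg/g. On D-camphor it is 12 at 17 mg/g and 11 at 41 mg/g.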
